A study of Nasonia vitripennis with 76 samples.

Results

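Heads of triploid (3N) females of the parasitoid wasp *Nasonia vitripennis* were compared with abdomens of triploid females in 19 of the 76 polyA RNA libraries of the series. The heads were 9 libraries, 5 from generation F14 and 4 from generation F2. The abdomens were 10 libraries, 5 from each of these generations. All wasps belonged to the TRA strain, a polyploid line that was made artificially by knockdown of *transformer* (*tra*), and all were sampled at 1 day after emergence. Every group therefore shares the history of that line, and no wild-type strain enters the comparison. The 18 libraries of diploid (2N) females of the same generations and the 38 libraries of haploid (1N) and diploid males of generations F3 and F15 were used only to show where the triploid females differ. The labels do not say whether a library is 1 wasp or a pool, whether a head and an abdomen came from the same wasp, or whether antennae were left on the heads. Libraries are called by the codes in their labels (A31 to A60). The p-values measure the spread between these libraries only, which may be partly technical.

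The insect head holds the brain, the compound eyes and ocelli, the antennae, the mouthparts and the glands that serve them. The abdomen of a female wasp holds the ovaries, the gut, the fat body, the venom apparatus and part of the nerve cord. In the wasp ovary, nurse cells copy their DNA without dividing and load the oocyte with maternal transcripts, among them those that later set up the germ line and the body axes of the embryo. A triploid female carries 3 chromosome sets, and the comparison asks which transcripts mark each body region in such females.

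Total counts ran from 15884252 to 21577242 in the heads (median 17108945) and from 23122603 to 28079590 in the abdomens (median 26574258), so depth goes with tissue. Heads had a count in 10575 to 12641 genes and abdomens in 11423 to 12030. The first principal component of the log2 levels held 85.2% of the variance among the 19 libraries and separated their heads from their abdomens. A library labelled as an F2 head, A34, was left out because its markers went against its label: it had 0 counts per 1000000 counts (CPM) of the eye opsin *Lop1*, 19.2 CPM of *Syt1* and 761 CPM of *oskar*. A34 was not among the 19 libraries of the principal components. The separation there, and the lack of overlap between regions for markers of this kind, rest on that choice and are descriptions only. Among the heads that were kept, A35 (F2) stood apart. Its log2 levels correlated at a mean r of 0.907 with the other F2 heads and of 0.936 with the F14 heads, and 10.5% of its counts fell in its top 10 genes. Among the abdomens, A57 (F14) correlated at a mean r of 0.945 with its own group and of 0.619 with the heads, the highest value of any abdomen. Levels below are scaled CPM unless TPM (transcripts per 1000000 transcripts) are named, a difference is log2 head minus abdomen with its standard error, and a gene is called where the adjusted p of edgeR's quasi-likelihood test is under 0.05.

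Most of the transcriptome differed between the regions. Of 11442 tested genes, 9597 (83.9%) were called, 4677 (40.9%) higher in the head and 4920 (43%) lower. A difference beyond 2-fold was called for 6689 genes (58.5%), with 3360 (29.4%) higher in the head and 3329 (29.1%) lower. The range of the 9 heads lay wholly above that of the 10 abdomens for 2717 genes (23.7%) and wholly below it for 3357 (29.3%). With A35 and A57 left out, a choice made after the data were seen, 5023 genes were called higher and 4963 lower. The median difference of all tested genes was −0.03 with TMM scaling and 0.10 with RLE size factors. In bulk tissue a lower number of cells of a type and less RNA per cell cannot be told apart.

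**Figure D1:**
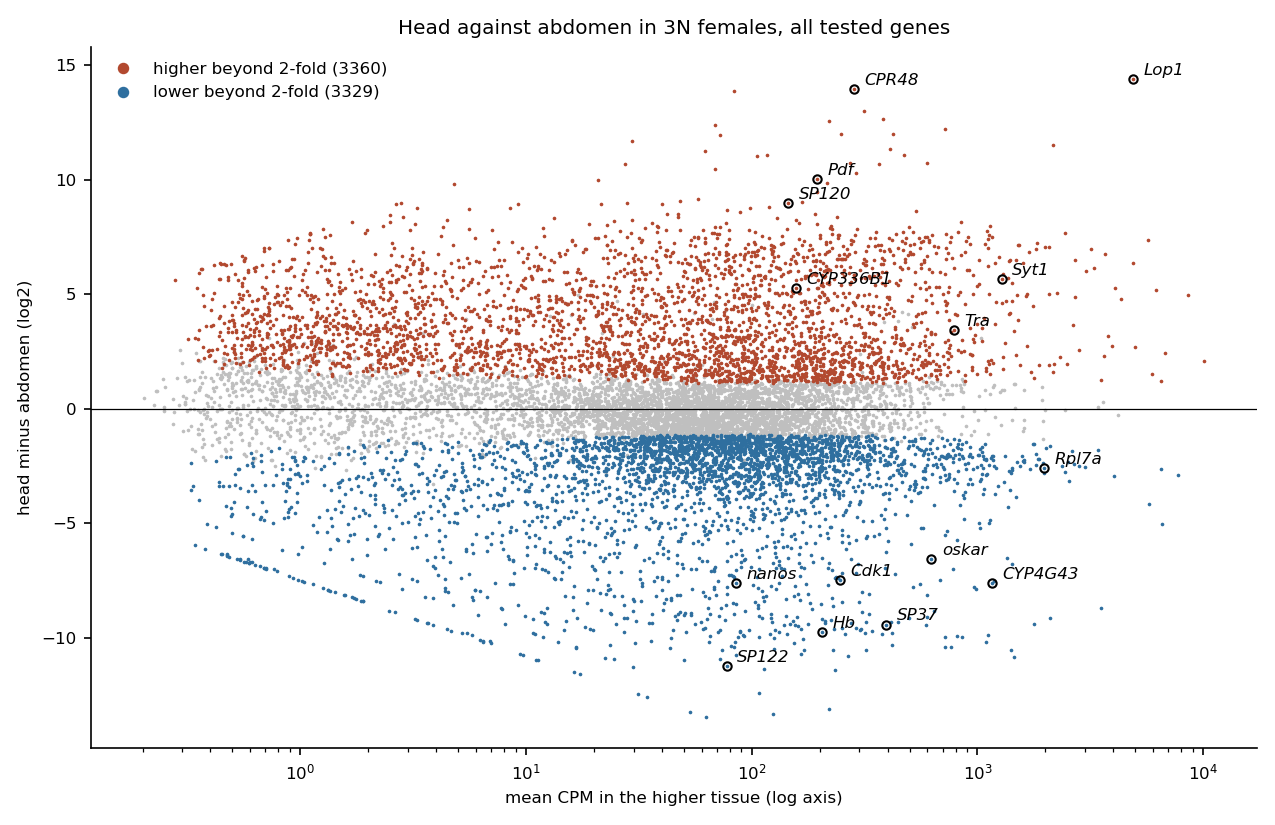
Difference between heads and abdomens (log2, vertical axis) against the mean CPM in the higher tissue (log axis) for each of the 11442 tested genes of 3N females. Coloured points are the 3360 genes higher and the 3329 genes lower beyond 2-fold, grey points are the other genes, and ringed genes are described in the text.

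Some transcripts were found almost wholly in 1 region. By level alone, 50 genes had at least 5 CPM in every head and under 0.5 CPM in every abdomen, and 104 genes had the reverse. Both counts rest on the choice of libraries, since they were 0 and 0 with A34 kept as a head. Gene order was taken from RefSeq assembly Nvit_psr_1.1 over the 14621 genes of the series alone. In that order 15 of the 104 abdomen genes stood beside another of them, in 7 runs of up to 3 genes. How many genes of other sets of this size stand side by side was not tested. The run of 3 held LOC100680331, LOC100680371 and LOC100680408. Of the 50 head genes, 2 stood side by side (LOC100114807 and LOC100114768).

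The eye opsin and most genes of nerve cells were higher in the head. *Lop1*, a long-wavelength opsin of photoreceptors, had 794 to 21791 CPM in the heads (median 2554) and 0 to 2.65 CPM in the abdomens (median 0), a difference of 14.41 ± 1.13. The regions are apart by the choice of libraries, since the left-out A34 had 0 CPM, and the heads themselves spanned a wide range. A55 had 6807 CPM and the other F14 heads 794 to 2027 CPM, and A35 had 21791 CPM and its fellow F2 heads 2554 to 3808 CPM. With DESeq2 *Lop1* had no adjusted p, so it was not called there.

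Of 21 tested genes for neuronal receptors, ion channels and synaptic proteins, 20 were called higher in the head, 19 of them beyond 2-fold, and 1 lower. Among all tested genes, 40.9% were called higher, 29.4% higher beyond 2-fold and 43% lower. For 18 of the 21 every head lay above every abdomen, as was so for 23.7% of all tested genes. The median difference of the list was 5.78, against −0.03 for all genes. *Syt1* encodes synaptotagmin 1, the calcium sensor of synaptic vesicles. It had 946 to 1837 CPM in the heads (median 1292) and 15.1 to 43.0 CPM in the abdomens (median 22.5), a difference of 5.65 ± 0.17. Its spread within each region was small beside the gap between them. The left-out A34 had 19.2 CPM of *Syt1*, within the range of the abdomens, so that gap rests on the choice of libraries. The dopamine receptor gene *Dop2* had 33.2 to 59.8 CPM in the heads and 0 to 0.316 CPM in the abdomens (8.49 ± 0.39). Inhibitory channels followed, with *HisCl1*, a histamine-gated chloride channel, at 8.12 and *GluCl*, a glutamate-gated one, at 6.84. The voltage-gated sodium channel gene *Para*, which carries the action potential, differed by 5.45, and the calcium-activated potassium channel gene *Slo*, which is also used in muscle, by 0.95.

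Nicotinic acetylcholine receptors mediate fast excitation in the insect brain. Of their 12 tested subunits 11 were called higher in the head, against 40.9% of all tested genes. *nAChRa8* had 128 to 281 CPM in the heads and 3.0004 to 6.46 CPM in the abdomens (5.52 ± 0.20). *nAChRa5* had 16.6 to 32.7 CPM in the heads and 0.607 to 1.63 CPM in the abdomens (4.63 ± 0.21). The exception was *nAChRa9*, a scarce transcript with 0 to 0.208 CPM in the heads and 0.106 to 2.22 CPM in the abdomens, lower by −4.51 ± 0.85. Its ranges overlapped, and it was the only member of the neuronal list called lower.

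Peptide hormone genes followed the nerve genes. *Pdf*, the transmitter of clock neurons in insects, had 99.2 to 465 CPM in the heads (median 187) and 0 to 0.495 CPM in the abdomens, a difference of 10.04 ± 0.55. A35 had 465 CPM, and its fellow F2 heads had 99.2 to 107 CPM. *ACP*, a peptide related to adipokinetic hormone and corazonin, had 13.1 to 62.96 CPM in the heads and 0 to 0.829 CPM in the abdomens (6.88 ± 0.55). The gene of its receptor, *Acpr*, had 105.4 to 148 CPM in the heads and 0.260 to 2.69 CPM in the abdomens (6.61 ± 0.31). Of the 4 tested members of the peptide list, 3 were called higher, against 40.9% of all tested genes. A further 2 members had too few counts to be tested.

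**Figure D2:**
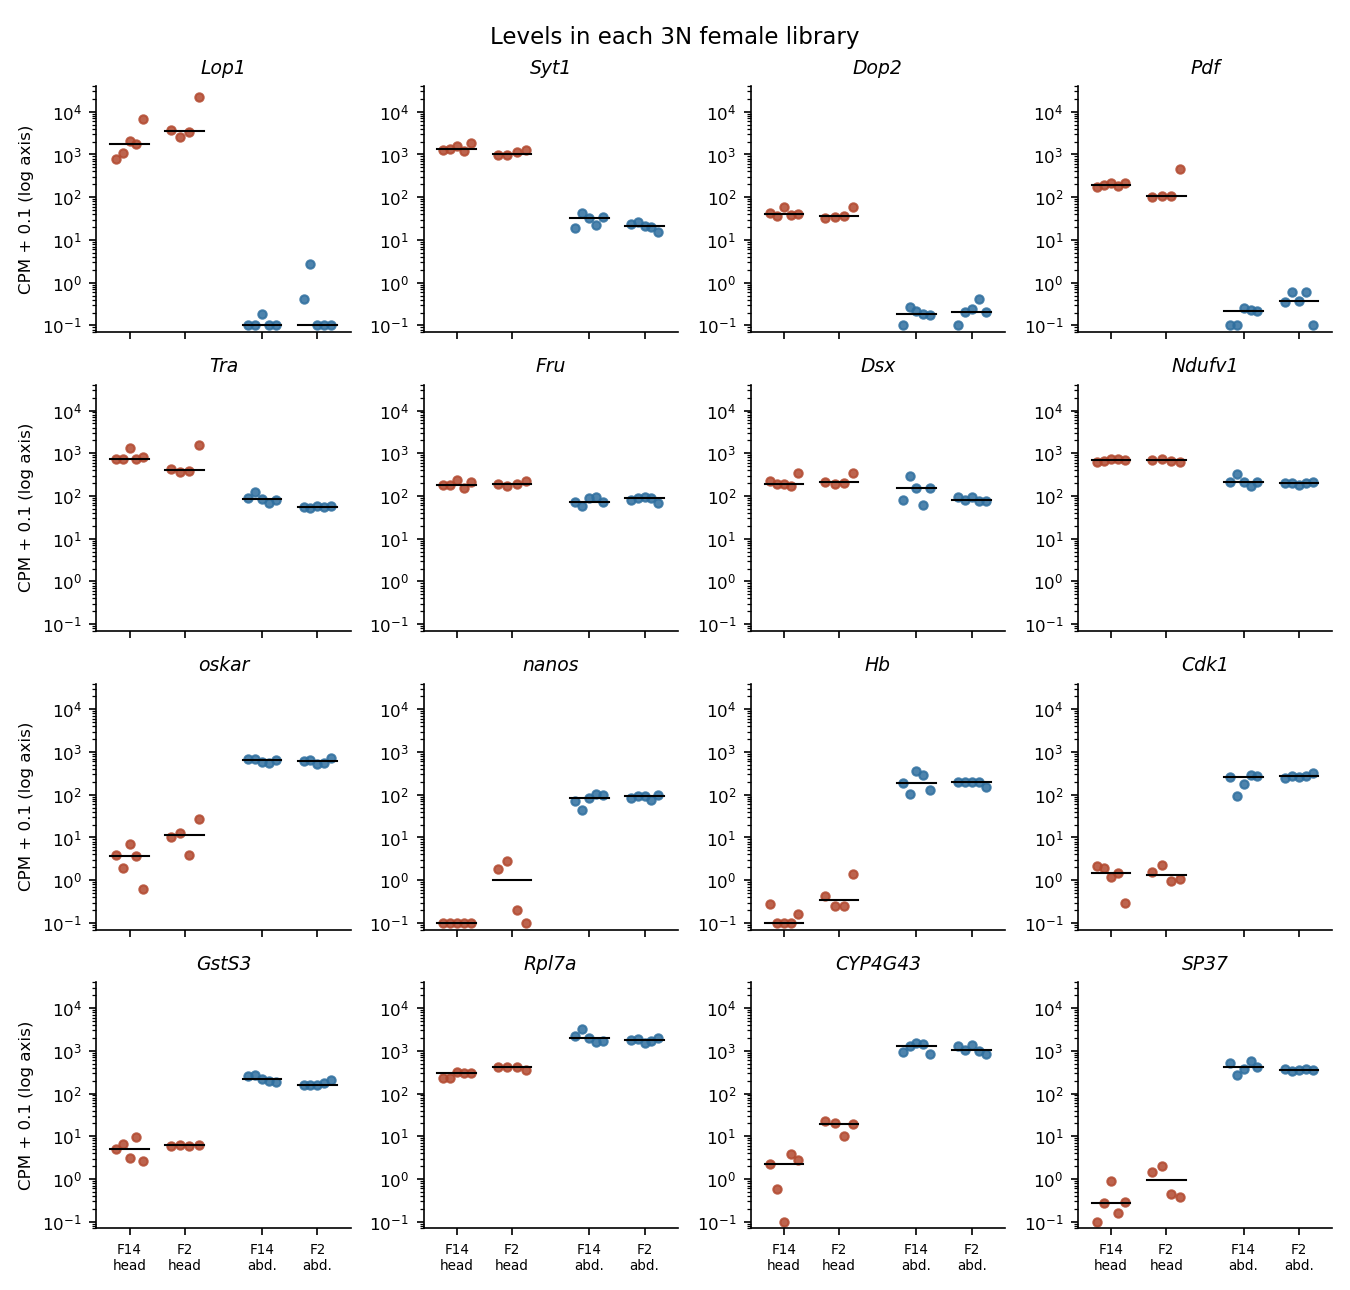
Level of 16 genes in each 3N female library, as CPM + 0.1 on a log axis, with heads in red, abdomens in blue, 1 point per library and the group median as a line. With A34 left out, heads and abdomens do not overlap in any panel except *Dsx*, and the abdomens of *Lop1* sit at or near 0.

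Chemosensory genes did not behave alike in all heads. The odorant receptor family works through a shared coreceptor, *Or1*, in antennal neurons. *Or1* had 0.922 to 7.47 CPM in the F14 heads, against 401, 381, 360 and 2.77 CPM in the F2 heads A32, A31, A33 and A35. The abdomens had 0.103 to 7.12 CPM, within the range of the 6 low heads or below it. Summed over the 214 odorant receptor genes in the files, the F14 heads had 34.4 to 49.99 CPM, and 7 to 14 of the genes reached 1 CPM in them. The F2 heads A31, A32 and A33 had sums of 658 to 821 CPM with 101 to 127 such genes, and A35 had 31.8 CPM with 11. The abdomens had 16.6 to 38.2 CPM with 3 to 9 genes.

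The filter on low counts was not passed by 157 of the 214 receptor genes. Of the 57 that did, 43 were called higher in the head and 3 lower, against 40.9% and 43% of all tested genes. With no filter 146 were called higher and 5 lower, and with A35 left out 131 were called higher and 2 lower. In the F14 libraries alone 4 were called higher and 4 lower, and in the F2 libraries alone 23 higher and 1 lower. The receptors tested were set anew each time, so these counts are not of the same genes. Without A35 the smallest group fell from 4 to 3 libraries, and the filter follows that size. Receptors with counts in A31, A32 and A33 alone could then pass, so the 131 cannot be set beside the 43. The 4 receptors of lowest adjusted p were *Or78*, *Or140*, *Or31* and *Or107*, and for each the 9 heads lay above the 10 abdomens. No other of the 57 tested receptors had every head above every abdomen, whereas 23.7% of all tested genes did. *Or140* had 1.11 to 8.09 CPM in the heads and 0 to 0.212 CPM in the abdomens (6.02 ± 0.65). *Or135* went the other way, with 0 to 2.04 CPM in the heads and 2.59 to 5.35 CPM in the abdomens (−2.89 ± 0.50). Whether antennae were present on each head is not recorded, and its part in these values was not tested.

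**Figure D3:**
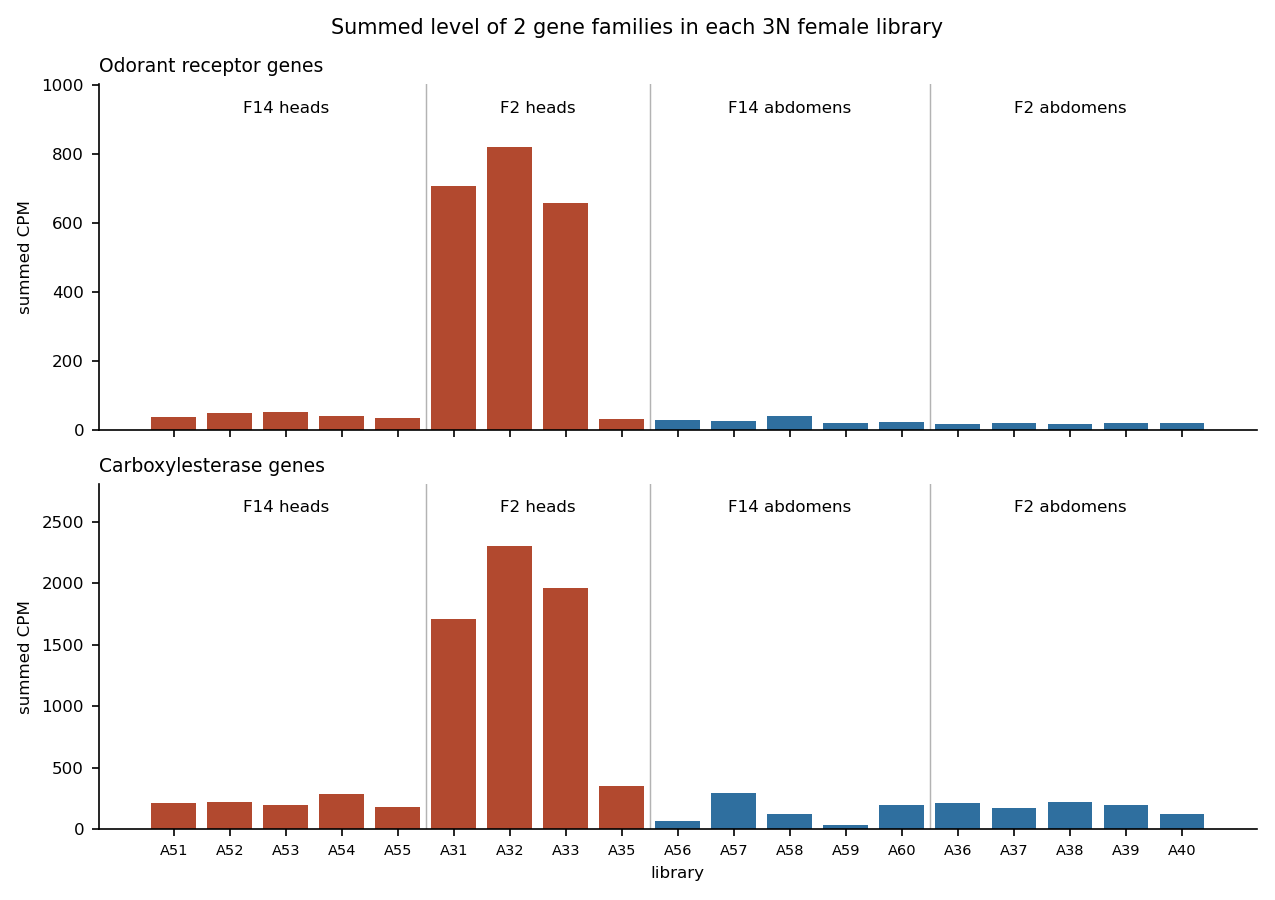
Summed CPM of the odorant receptor genes (upper panel) and of the carboxylesterase genes (lower panel) in each of the 19 libraries of 3N females, heads in red on the left and abdomens in blue on the right, with each bar 1 library. The F2 heads A31, A32 and A33 are high in both panels, and A35 and the 5 F14 heads are far below them.

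Gustatory receptors, which detect contact chemicals, were higher in the head with no overlap of their sums. Their summed level was 19.2 to 38.8 CPM in the F14 heads, 16.3, 15.9, 12.3 and 20.9 CPM in the F2 heads A31, A32, A33 and A35, and 2.06 to 9.33 CPM in the abdomens. A31, A32 and A33, the heads with many odorant receptor counts, were the 3 lowest heads here. Of 9 tested members (46 in the files), 8 were called higher and none lower, against 40.9% and 43% of all tested genes. In the F14 libraries alone 3 were called higher, and in the F2 libraries alone 5. *Gr3* had 2.16 to 15.03 CPM in the heads and 0.281 to 2.05 CPM in the abdomens (2.76 ± 0.33). *Gr6* had 1.10 to 7.93 CPM in the heads and 0 to 0.260 CPM in the abdomens (5.32 ± 0.66). All of these levels are low, and read sharing among related receptors makes single members of both families uncertain.

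The 3 sex determination genes were all called higher in the head, as were 40.9% of all tested genes. *Tra*, the splicing regulator that directs female development and that was knocked down to found the line, had 368 to 1532 CPM in the heads (median 748) and 52.4 to 123 CPM in the abdomens (median 64.1). Its difference was 3.44 ± 0.25, and the regions did not overlap. A53 had 1300 CPM and the other F14 heads 724 to 817 CPM, and A35 had 1532 CPM and its fellow F2 heads 368 to 428 CPM. *Fru*, a regulator of courtship circuits in *Drosophila*, had 149 to 235 CPM in the heads and 59.1 to 94.0 CPM in the abdomens (1.27 ± 0.10). *Dsx*, a transcription factor of sexual form, had 173 to 352 CPM in the heads and 59.8 to 293 CPM in the abdomens (1.04 ± 0.26, edgeR adjusted p = 0.000947). A57 held the highest *Dsx* level of the abdomens, and the regions overlapped. In the F14 libraries alone *Dsx* was not called (0.61, edgeR adjusted p = 0.166).

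Genes of the respiratory chain were higher in the head as a group, by modest amounts. Of 62 tested subunits of oxidative phosphorylation, 54 (87.1%) were called higher and 1 lower, against 40.9% and 43% of all tested genes. Their median difference was 1.21. Their summed level was 20104 to 39213 CPM in the heads and 12367 to 22550 CPM in the abdomens, and the highest abdomen sum, in A57, fell within the range of the heads. By complex, 29 of 31 tested subunits of complex I, 3 of 4 of complex II, 7 of 8 of complex III, 6 of 6 of complex IV and 9 of 13 of ATP synthase were higher. The median differences were 1.32 for complex I, 1.47 for complex III, 1.17 for complex IV and 1.00 for ATP synthase.

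*Ndufv1*, the subunit of complex I that takes electrons from NADH, had 628 to 733 CPM in the heads and 168 to 323 CPM in the abdomens (1.68 ± 0.10). *Ndufa7* of the same complex had 272 to 582 CPM in the heads and 43.5 to 106 CPM in the abdomens (2.54 ± 0.16). *Sdha*, the flavoprotein of complex II, was the one member called lower, with 180 to 305 CPM in the heads and 239 to 360 CPM in the abdomens (−0.32 ± 0.11, edgeR adjusted p = 0.014). That call was lost with RLE size factors (−0.19, edgeR adjusted p = 0.0945). The catalytic subunits of ATP synthase *Atp5a1* (0.03) and *Atp5b* (−0.35, edgeR adjusted p = 0.141) were among the 7 subunits not called.

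Cuticle and pigment genes were mixed, with strong genes on both sides. Of 29 tested cuticle protein genes, 18 (62.1%) were called higher in the head and 6 (20.7%) lower, against 40.9% and 43% of all tested genes. In the F14 libraries alone 9 were called higher and 5 lower. *CPR48*, of the family with a chitin-binding domain, had 17.3 to 1151 CPM in the heads (median 107) and at most 0.0809 CPM in the abdomens, where all 10 libraries together held 3 counts. The ratio of the mean head level to the pooled abdomen level was 25962, with an exact 95% counting interval of 8884 to 125892. It was 16062 without A55, the highest head, and 70859 without A58, which held 2 of the 3 abdomen counts. *CPR49* had 91.4 to 197 CPM in the heads and 0.669 to 9.54 CPM in the abdomens (5.02 ± 0.36). *CPR39* had 0 to 0.526 CPM in the heads and 13.54 to 114 CPM in the abdomens (−8.32 ± 0.57). Of 15 tested yellow and royal jelly-like genes, 8 (53.3%) were higher and 2 (13.3%) lower. *Y-e* of this family had 8.42 to 219 CPM in the heads and 0.223 to 0.968 CPM in the abdomens (6.38 ± 0.64), with A35 at 219 CPM.

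Immune genes were few and variable. Of 7 tested, 4 (57.1%) were called higher in the head and 1 (14.3%) lower, against 40.9% and 43% of all tested genes. The defensin gene *Def1-1*, an antimicrobial peptide, had 582, 241, 186, 76.2 and 3.05 CPM in the F14 heads A54, A52, A51, A53 and A55. The F2 heads had 4.09 to 22.4 CPM and the abdomens 0.149 to 7.75 CPM (5.07 ± 1.24, overlapping). *Gnbp1-2*, a binding protein for microbial glucans, was lower, with 2.21 to 23.6 CPM in the heads and 42.3 to 58.4 CPM in the abdomens (−2.78 ± 0.36). Of 3 tested storage proteins of the hexamerin family, 2 were higher, with *Hex83* at 3.89 to 24.5 CPM in the heads and 0.561 to 3.36 CPM in the abdomens.

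Germ plasm and oocyte genes were on the abdomen side. *oskar*, which assembles germ plasm in the oocyte, had 0.520 to 26.7 CPM in the heads (median 3.81) and 528 to 742 CPM in the abdomens (median 632), a difference of −6.57 ± 0.51. *nanos*, a translational repressor of the germ line, had 0 to 2.75 CPM in the heads (median 0) and 43.2 to 102 CPM in the abdomens (median 89.3), a difference of −7.63 ± 0.76. *Egl*, which moves transcripts to the oocyte in *Drosophila*, is also used elsewhere. It had 54.5 to 81.8 CPM in the heads and 151 to 265 CPM in the abdomens (−1.70 ± 0.10). All 3 tested members of that list were called lower in the head, as were 43% of all tested genes. The left-out A34 had 761 CPM of *oskar* and 84.1 CPM of *nanos*, within the range of the abdomens for *nanos* and above it for *oskar*, so for both the regions are apart by the choice of libraries.

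Transcripts of embryonic patterning genes, several of which are stored in the egg, were on the same side. Of 7 tested, 6 were called lower in the head and 1 higher, against 43% and 40.9% of all tested genes. *Hb* (hunchback, an anterior determinant) had 0 to 1.32 CPM in the heads and 103 to 364 CPM in the abdomens (−9.77 ± 0.56). *Cad* (caudal, a posterior determinant) had 0 to 0.850 CPM in the heads and 30.7 to 135 CPM in the abdomens (−8.56 ± 0.60). *Gt* (giant, an anterior determinant in this wasp) had 15.2 to 32.7 CPM in the heads and 130 to 530 CPM in the abdomens (−3.61 ± 0.21). *Eve* (even-skipped, a pair-rule gene) differed by −7.89 ± 0.48. The exception was *Admp*, a BMP-type ligand, with 1.39 to 7.62 CPM in the heads and 0 to 1.29 CPM in the abdomens (2.89 ± 0.52).

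All 15 tested cell cycle genes were called lower in the head, 14 of them beyond 2-fold, with a median difference of −3.05. Among all tested genes, 43% were called lower and 29.1% lower beyond 2-fold. The 15 genes are described together below. The summed level of the cell cycle list was 181 to 257 CPM in the heads and 1448 to 3899 CPM in the abdomens, with A57 the lowest abdomen. *Cdk1*, the kinase that starts mitosis, had 0.195 to 2.20 CPM in the heads (median 1.41) and 92.7 to 320 CPM in the abdomens (median 265), a difference of −7.49 ± 0.34. *fzy*, an activator of the anaphase-promoting complex, had 1.25 to 5.91 CPM in the heads and 101 to 398 CPM in the abdomens (−6.80 ± 0.36). *Skp1*, a subunit of a ubiquitin ligase that acts throughout the cycle, had 53.8 to 76.3 CPM in the heads and 392 to 572 CPM in the abdomens (−2.89 ± 0.09). The smallest differences were those of *E2f8* (−1.42), a transcription factor linked in mammals to DNA copying without division, and of *Cenp-a* (−0.998), the histone of centromeres.

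DNA repair and chromatin genes followed. Of 16 tested genes of repair and meiosis, 15 were called lower in the head and 1 higher, with a median of −2.24. Among all tested genes, 43% were called lower and 40.9% higher. *recQ1*, a DNA helicase, had 1.87 to 3.38 CPM in the heads and 24.9 to 36.9 CPM in the abdomens (−3.68 ± 0.14). The lowest were *Hop2* (−7.63), which pairs homologous chromosomes in meiosis, and *WRNexo* (−5.79), an exonuclease. *Xrcc2* was called higher by 0.58 ± 0.20, with overlapping ranges of 4.48 to 9.98 CPM in the heads and 2.63 to 7.17 CPM in the abdomens. Its call was lost in the F2 libraries alone (0.28, edgeR adjusted p = 0.157). Of 7 tested chromatin and DNA methylation genes, 6 were lower and 1 higher. *Dnmt1a*, a maintenance methyltransferase, had 9.63 to 32.97 CPM in the heads and 105.5 to 204 CPM in the abdomens (−3.08 ± 0.22). *Rpd3*, a histone deacetylase, had 5.003 to 24.7 CPM in the heads and 119 to 269 CPM in the abdomens (−3.76 ± 0.29).

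**Figure D4:**
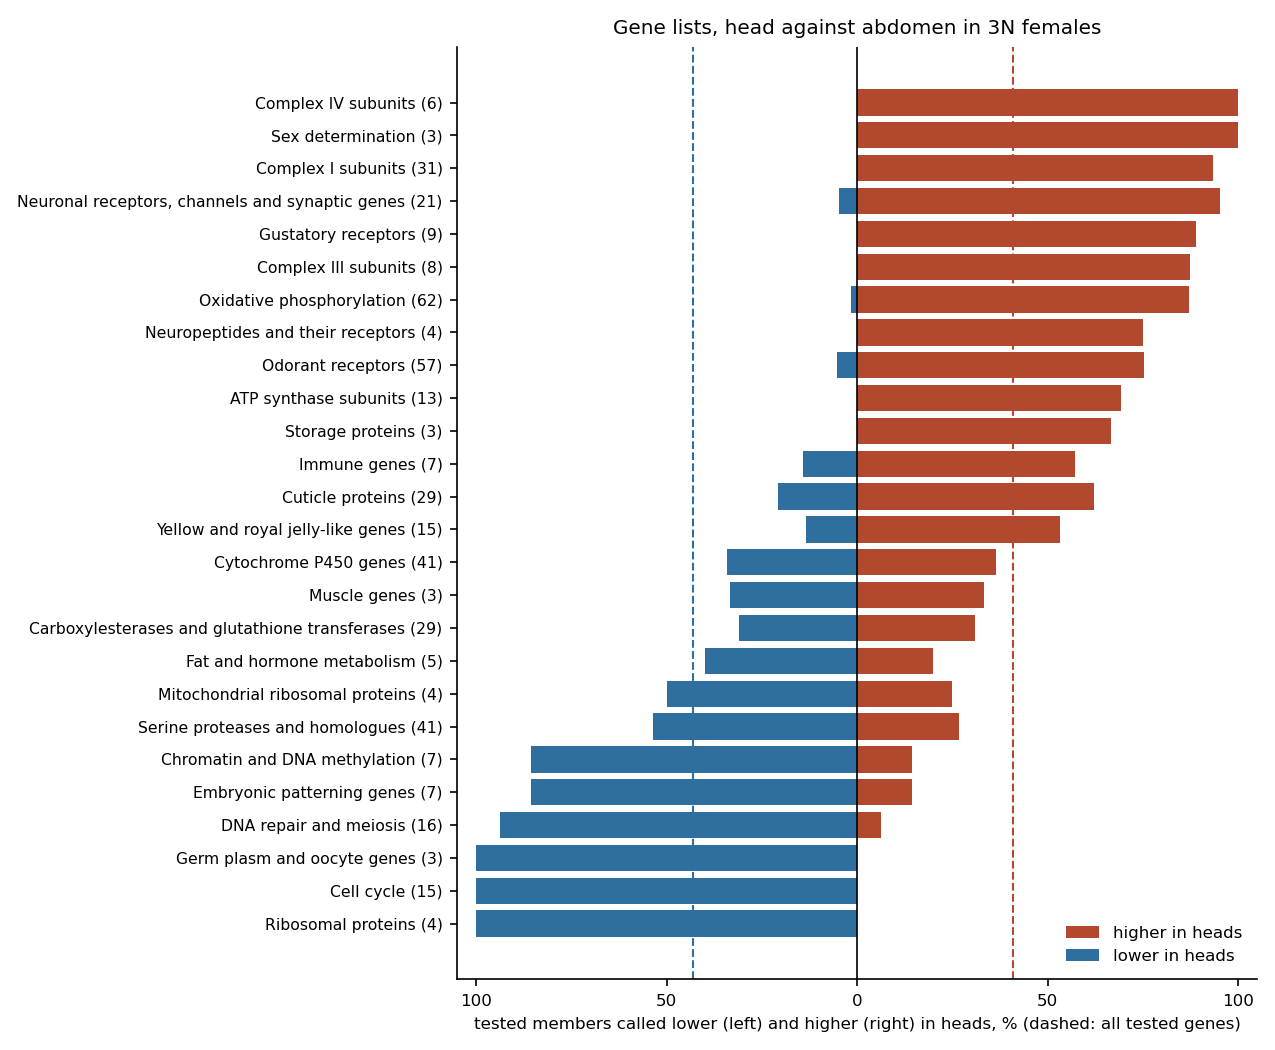
Share of the tested members of each gene list that was called higher (right, red) or lower (left, blue) in the heads, in percent, with the number tested in parentheses and the share of all tested genes as dashed lines (40.9% higher and 43% lower). Nerve and respiratory lists lie to the right, and cell cycle, germ plasm, repair and ribosomal lists lie to the left.

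All 4 ribosomal protein genes that carry such a symbol in the files were called lower in the head, as were 43% of all tested genes. *Rpl7a* had 227 to 419 CPM in the heads and 1518 to 3308 CPM in the abdomens (−2.58 ± 0.17). *Rpl6* had 231 to 500 CPM in the heads and 1208 to 2539 CPM in the abdomens (−2.34 ± 0.16). *Rpl41* (−1.68) and *Rpl39* (−1.02) were lower with overlap between the regions. Median TPM of *Rpl41*, on the scale that allows for gene length, was 3694 in the heads and 19531 in the abdomens. These 4 are a small sample of the cytosolic ribosomal proteins, so they do not describe the whole ribosome. Of 4 mitochondrial ribosomal proteins, *mRpL12* was lower by −2.06 ± 0.13 and *Mrpl37* by −0.49 ± 0.12, while *mRpL53* was higher by 0.47 ± 0.14. The call of *mRpL53* was lost in the F2 libraries alone (0.14, edgeR adjusted p = 0.478).

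Enzyme families that handle foreign and hormonal compounds had members on both sides. Of 41 tested cytochrome P450 genes, 15 (36.6%) were called higher in the head and 14 (34.1%) lower, against 40.9% and 43% of all tested genes. *CYP4G43*, of a subfamily that makes cuticular hydrocarbons in insects, had 0 to 23.1 CPM in the heads (median 3.84) and 827 to 1551 CPM in the abdomens (median 1173), a difference of −7.61 ± 0.72. *CYP314A1*, which makes the active form of the moulting hormone, had 9.63 to 26.2 CPM in the heads and 77.1 to 144 CPM in the abdomens (−2.71 ± 0.21). *CYP336B1* had 113 to 216 CPM in the heads and 1.15 to 8.33 CPM in the abdomens (5.27 ± 0.34). *CYP9AG6* had 0.658 to 7.51 CPM in the heads and 74.04 to 109 CPM in the abdomens (−4.79 ± 0.36).

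Of 29 tested carboxylesterases and glutathione transferases, 9 (31%) were higher and 9 (31%) lower, against 40.9% and 43% of all tested genes. The sigma-class glutathione transferase *GstS3* had 2.53 to 9.28 CPM in the heads and 154 to 274 CPM in the abdomens (−5.14 ± 0.22). *GstS8* had 4.68 to 32.9 CPM in the heads and 440 to 694 CPM in the abdomens (−5.22 ± 0.33). The omega-class genes went both ways, with *GstO1* lower by −1.20 ± 0.08 and *GstO2* higher by 1.43 ± 0.11. The carboxylesterases had a summed level of 1707 to 2301 CPM in A31, A32 and A33, the heads with many odorant receptor counts. The other 6 heads had 183 to 351 CPM and the abdomens 36.02 to 297 CPM. The same split was seen in 2 more sums. Glutathione transferases had 2031 to 2371 CPM in A31, A32 and A33 and 479 to 744 CPM in the other 6 heads. Their abdomens had 1551 to 1967 CPM. P450 genes had 3994 to 4826 CPM in A31, A32 and A33 and 960 to 1369 CPM in the other 6 heads. Their abdomens had 1253 to 2269 CPM. In the F14 libraries alone 13 P450 genes and 5 of the esterases and transferases were called higher in the head, and in the F2 libraries alone 23 and 16.

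Serine proteases were found on both sides. Of 41 tested, 11 (26.8%) were called higher in the head and 22 (53.7%) lower, against 40.9% and 43% of all tested genes. *SP37* had 0 to 1.95 CPM in the heads (median 0.277) and 270 to 578 CPM in the abdomens (median 371), a difference of −9.43 ± 0.55. *SP122* had 0 to 0.0998 CPM in the heads and 2.84 to 415 CPM in the abdomens (−11.24 ± 0.75). In the other direction, *SP120* had 61.6 to 376 CPM in the heads and 0.0345 to 0.521 CPM in the abdomens (8.97 ± 0.47). *SP68* had 14.2 to 78.9 CPM in the heads and 0.0696 to 1.14 CPM in the abdomens (6.92 ± 0.47). For muscle, fat and clock genes the lists were short and mixed. Of these, *Acads*, an enzyme of fatty acid oxidation, was lower by −1.43 ± 0.13, *Adipor1*, an adiponectin-type receptor, higher by 0.82 ± 0.09, and the tropomyosin *Tm2* lower by −0.59 ± 0.07.

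Most of the 24 genes at the ends of the range carry only LOC numbers, to which the sources give no role. On the head side, LOC100119443 had 184 to 1711 CPM in the heads and 0 to 0.324 CPM in the abdomens (12.24 ± 0.64). LOC100115165 had 295 to 9203 CPM in the heads and 0.138 to 1.44 CPM in the abdomens (11.53 ± 0.73), with A35 at the top of the range. LOC103317439 had no count in any abdomen and 1.96 to 342 CPM in the heads, at least 7624-fold higher against a floor of 3 counts over the 10 abdomens. A35 held the 342 CPM, and without it the bound was 4672-fold. On the abdomen side, LOC107980919, hmm536144, LOC103316378 and LOC100121404 had no count in any head. Against a floor of 3 counts over the 9 heads, they were at least 3232-fold, 2758-fold, 1762-fold and 1618-fold lower in the head. LOC100121404 was also even among the abdomens, at 20.1 to 43.0 CPM, whereas hmm536144 ran from 5.64 to 178 CPM. LOC100119882 had a single count in the heads and 57.1 to 181 CPM in the abdomens.

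The difference between the regions itself depended on generation for a minority of genes. The interaction, the F14 difference minus the F2 difference, was called for 1293 genes (11.3%), 543 higher (4.75%) and 750 lower (6.55%). With A35 left out 2587 genes were called, and with A31 left out 837, so single F2 heads move this count. Across the 11442 genes, which are not independent replicates, the F14 and F2 differences had r = 0.904. Generation and any difference between batches of libraries cannot be told apart. Among the lists, 12 of the 57 tested odorant receptors and 10 of the 29 esterases and transferases had a lower difference in F14, and none and 2 a higher one. For *Or1* the difference was 1.10 in F14 and 9.35 in F2 (interaction −8.24 ± 1.66). Of the 62 respiratory subunits, 12 had a higher difference in F14 and none a lower one, with list medians of 1.42 in F14 and 0.99 in F2.

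Of the 10 genes named for this interaction, 4 were high in the same 3 F2 heads and near 0 in A35. *CCE-B6*, a carboxylesterase, had 0 to 2.14 CPM in the F14 heads, against 1640, 1400, 1110 and 0 CPM in the F2 heads A32, A33, A31 and A35, and 0 to 9.39 CPM in the abdomens. LOC100119774, LOC116416646 and LOC107980651 had the same split, with 61.02 to 228 CPM in A31, A32 and A33 and at most 0.346 CPM in the other 6 heads. These are the heads with many odorant receptor counts, and their part in the call was not tested. In the other direction, LOC100122694 had 2200, 1056, 502, 199 and 46.5 CPM in the F14 heads A54, A52, A51, A53 and A55, the order seen for *Def1-1*. Its F2 heads had 2.22 to 4.62 CPM and the abdomens 0.576 to 22.96 CPM. LOC100680373 had 0 CPM in all 5 F14 heads and 6.89 to 42.2 CPM in the F2 heads, against 15.99 to 104 CPM in the F14 abdomens and 29.4 to 50.97 CPM in the F2 abdomens. The interaction of *CYP4G43* was −3.45 ± 0.72, with 0 to 3.84 CPM in the F14 heads and 10.2 to 23.1 CPM in the F2 heads. For *nanos* it was −7.59 ± 1.85. *nanos* had no count in the F14 heads, so this fitted size is no bound. For *CYP314A1* it was 1.48 ± 0.20, with a difference of −2.03 in F14 and −3.51 in F2.

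In diploid females the regions differed in nearly the same way. Across 12145 genes, the differences of 3N and 2N females had r = 0.968. They were called in the same direction in both for 9626 genes and in opposite directions for 7. The interaction, 3N difference minus 2N difference, was called for 2 genes (0.0165%), 1 higher and 1 lower (0.00823% each), and 1242 had an unadjusted p under 0.05. With DESeq2 86 were called, without A55 72, without A35 17 and with A34 kept as a head none by edgeR, where 1268 had an unadjusted p under 0.05. For 54.6% of genes the 95% interval of the interaction lay within 2-fold either way, and for the others it reached past 2-fold.

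Both called genes are LOC numbers. LOC100116524 differed by −3.92 in 3N and −3.13 in 2N females (interaction −0.79 ± 0.14, edgeR adjusted p = 0.0198). LOC100116524 had 4.10 to 6.22 CPM in 3N and 5.62 to 6.93 CPM in 2N heads of F14. In F2 it had 108 to 132 CPM in 3N and 246 to 505 CPM in 2N heads, and the abdomens of all groups had 323 to 507 CPM. The 3N and 2N heads did not overlap in F2, and they overlapped in F14. With A34 kept as a head the call was lost (−0.53, edgeR adjusted p = 0.496). LOC116417896 differed by 2.58 in 3N and 0.04 in 2N females (interaction 2.54 ± 0.43, edgeR adjusted p = 0.0198). It had 11.9 to 25.9 CPM in 3N heads and 2.68 to 16.02 CPM in 2N heads, and the abdomens had 0.734 to 8.30 CPM in 3N and 1.11 to 12.3 CPM in 2N females. The 2N value averages generations that went opposite ways. In F14, 2N heads averaged 12.2 CPM and 2N abdomens 5.40 CPM, beside 17.1 and 6.08 CPM in 3N females. In F2, 2N heads averaged 3.99 CPM and 2N abdomens 8.53 CPM, beside 15.97 and 1.25 CPM in 3N females. The 3 F2 abdomens of 2N females had 12.3, 12.2 and 1.11 CPM. This gene was described after its values were seen, because only 2 were called. The odorant receptor sum of 2N heads was 37.1 to 126 CPM in the 5 F14 libraries and 307 to 725 CPM in the 5 F2 libraries. Of the F2 female heads that were used, A35 was the one with a sum below 100.

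Between triploid females and males the regional difference varied in size or direction for most genes. Ploidy, sex and generation differ together here, since males were 1N or 2N and came from F3 and F15. Of 12736 tested genes, 9818 (77.1%) had a difference that differed between 3N females and males, 5300 (41.6%) higher in 3N females and 4518 (35.5%) lower. Across genes the 2 differences had r = 0.429, with 5363 genes called in the same direction and 2909 in opposite directions. All 15 cell cycle genes had a lower difference in 3N females, with list medians of −3.07 in 3N females and 0.39 in males. For *Cdk1* the difference was −7.52 in 3N females and −0.29 in males. *Dsx* was higher in the head in 3N females (1.05) and lower in males (−1.71), an interaction of 2.75 ± 0.21. *Syt1* was higher in the head in both, by 5.63 in 3N females and 2.697 in males. *Tra* was higher in the head by 3.43 in 3N females and 0.90 in males. Respiratory subunits had list medians of 1.15 in 3N females and 0.53 in males, and *Lop1* (15.24 in 3N females and 14.02 in males) had no called interaction.

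The genes at the ends of this comparison were near 0 in all but 1 kind of sample. The 5 named genes with the most positive interaction, LOC100117783, LOC100119680, LOC103315576, LOC100123839 and LOC100679413, were abundant in male abdomens. With A35 left out, LOC100123839 and LOC100679413 lost the call (edgeR adjusted p = 1 for both). Fitted sizes of genes near 0 in both regions of 1 sex are no bounds. LOC100117783 averaged 0.867 CPM in F14 and 0.374 CPM in F2 heads of 3N females and under 0.2 CPM in the 3N abdomens, while its male abdomens averaged 1809 to 3869 CPM over 4 groups. Of the 5 with the most negative interaction, LOC100678440, LOC100678380, LOC100113517 and LOC100115936 were abundant in 3N abdomens. LOC100113517 averaged 1637 CPM in F14 and 1052 CPM in F2 abdomens of 3N females, and under 1 CPM in every male group. *CYP9AG7*, a cytochrome P450, averaged 0 CPM in 3N heads, whereas male heads averaged 2235 to 13381 CPM over 4 groups.

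**Figure D5:**
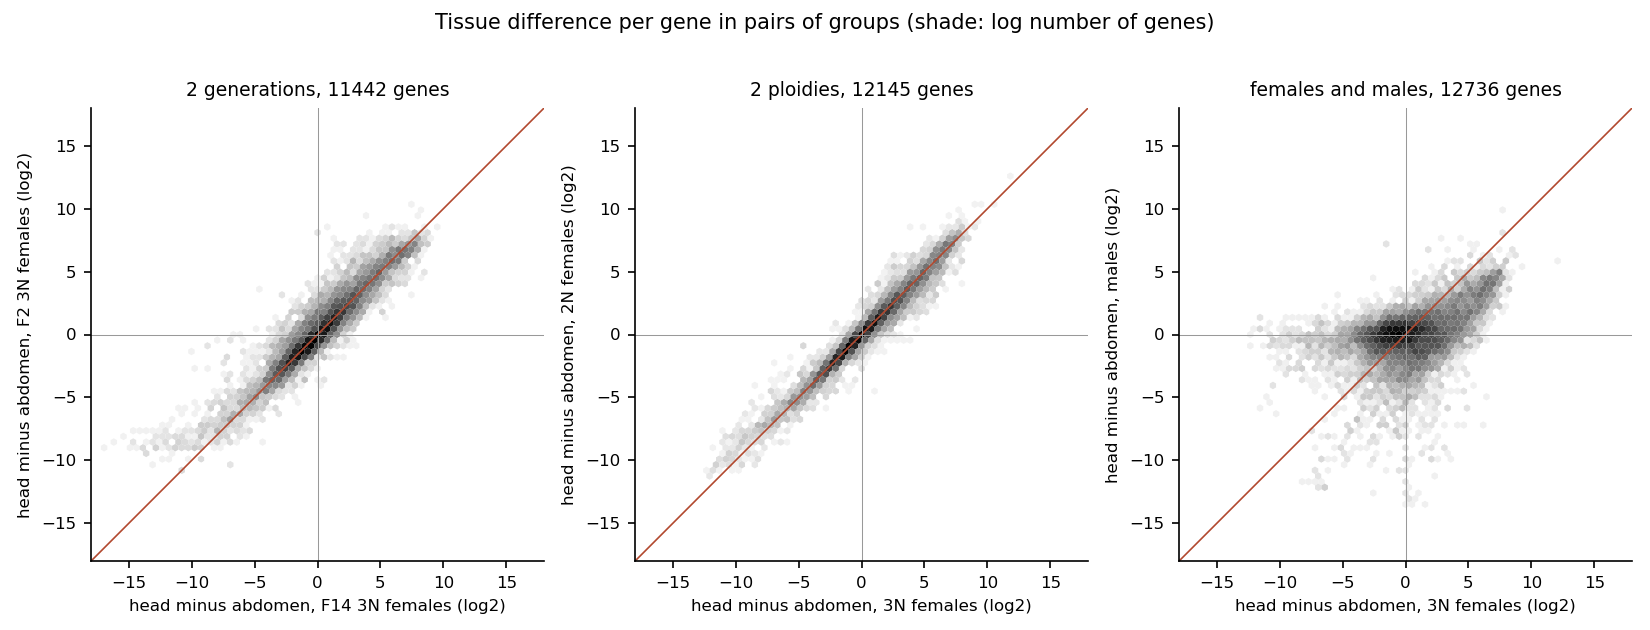
Difference between heads and abdomens per gene (log2) in pairs of groups, as density of genes: F14 against F2 3N females (left), 3N against 2N females (middle) and 3N females against males (right), with the line of equality in red. The middle panel follows the line most closely (r = 0.968, left 0.904) and the right panel spreads away from it (r = 0.429).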

How the data were processed

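PolyA RNA of heads and abdomens was sequenced. The expected counts per gene, as deposited, and the TPM values, as deposited by the authors, were made with STAR 2.7.11a and RSEM 1.3.1, per the submitters' processing notes. For the build and gene models the submitters used, a name is not given in the sources used here. RSEM divides reads that match several genes by an estimate, so values of near-identical family members are uncertain. Symbols that are not LOC numbers belong to 829 of the 14621 genes, and every gene matched the RefSeq table of assembly Nvit_psr_1.1, which was used only for names and gene order. Every column of values was matched to a sample (0 left over). No DNase was used, per the labels' protocols, and the strand setting of the counting is not given.

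Expected counts were rounded, filtered with filterByExpr, scaled by TMM and fitted with edgeR 4.0.16 (robust quasi-likelihood, generation and tissue as terms). The p-values were adjusted by the Benjamini-Hochberg method across every gene tested. Calls beyond 2-fold used glmTreat. Standard errors are the log2 difference over the root of F. Interactions were contrasts of group means in fits over 19 (generation), 37 (ploidy) and 59 (males) libraries. Floors are 3 counts, and intervals of ratios cover counting error only. Alternatives used DESeq2 1.42.0, RLE size factors, no filter, limma 3.58.1 on log2(TPM + 1) and other sets of libraries. The test was tried on simulated counts first. Named genes had a mean of at least 20 CPM in the higher tissue, a call beyond 2-fold and no overlap (the 12 highest and 12 lowest), or were up to 4 called members of a list by adjusted p, or up to 2 against its majority. Of these, 1 gene is not reported here. *Tra*, *Fru* and *Dsx* were always named, as were up to 5 genes each way per interaction. Other genes, such as *Or1* and members of lists given by their difference alone, were chosen after their values were seen. The members and lists were chosen with earlier results of these data known. The library A34 was left out by its markers.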

Additional observations from a re-analysis of the deposited data

Results flagged for a closer look

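Single libraries stood apart from the others of their group for several genes described above. Of 87 sets of 4 or 5 libraries examined for the 16 plotted genes, *Or1*, *CPR48* and 4 list sums, 19 held a value past Dixon's critical value. Chance gives about 1 in 20 for normally distributed values only. A set with a single library above 0 passes it whatever that value is, so the rate is no baseline for genes near 0. Over all named genes, 99 of 480 sets (20.6%) did, and 31 of these values were in A35. Among the values of the first count, the outlying F2 head was A35 each time. It had 21791 CPM of *Lop1*, 478 of *CPR48*, 465 of *Pdf*, 57.97 of *Dop2*, 1532 of *Tra*, 349 of *Rpl7a*, 1.32 of *Hb*, 2.77 of *Or1* and a cell cycle sum of 184. In the F14 heads, A55 had 6807 CPM of *Lop1*, and A53 had 59.8 of *Dop2*, 1300 of *Tra* and 0.789 of *SP37*. Among the F14 abdomens, A58 had 0.0809 CPM of *Lop1*, 0.0809 of *CPR48* and 7.12 of *Or1*. Among the F2 abdomens, A37 had 2.65 CPM of *Lop1* and 0.0354 of *CPR48*, and A40 had 153 of *Hb*. The *Lop1* and *CPR48* values in abdomens are traces against their levels in heads.

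The difference between head and abdomen itself differed between generations for some genes (edgeR interaction, F14 minus F2, log2). It was positive for LOC100462678 (12.97), LOC100115777 (9.73), LOC100680086 (7.82), LOC100122694 (7.57) and LOC107980930 (6.79). It was negative for *CCE-B6* (−11.36), LOC116416646 (−11.69), LOC100119774 (−12.27), LOC100680373 (−12.32), LOC107980651 (−14.40), *Or1* (−8.24), *nanos* (−7.59), *CYP4G43* (−3.45) and *Rpl7a* (−0.82). Between 3N and 2N females (3N minus 2N) it differed for LOC100116524 (−0.79) and LOC116417896 (2.54).

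Between 3N females and males (3N females minus males), the named genes with a positive interaction were LOC100117783 (17.60), LOC100119680 (17.22), LOC103315576 (17.05), LOC100123839 (16.73) and LOC100679413 (16.04). Those with a negative one were LOC100678440 (−12.40), LOC100678380 (−13.03), LOC100113517 (−13.89), LOC100115936 (−14.56) and *CYP9AG7* (−17.85). Of the plotted genes, positive interactions were those of *Syt1* (2.93), *Dsx* (2.75), *Tra* (2.53), *Dop2* (1.80), *Fru* (0.92) and *Ndufv1* (0.69). Negative ones were those of *Rpl7a* (−0.89), *GstS3* (−3.09), *Cdk1* (−7.23), *oskar* (−8.02), *SP37* (−10.50) and *Hb* (−11.53). Sex, ploidy and generation differ together in these, so their parts cannot be told apart.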

How the results depend on the processing

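No named gene or interaction changed sign under any alternative that was run, but the balance of all genes did. The 9597 calls between heads and abdomens became 9611 with RLE size factors, 9695 with DESeq2, 10560 without a filter, 9215 with A34 kept as a head, 8994 in F2 alone, 8243 in F14 alone, 9575 without a generation term, 9986 without A35 and A57, and 8894 with limma on log2(TPM + 1). Leaving out 1 library gave 9447 to 9878 calls, 4587 to 4932 of them higher and 4794 to 4946 lower, 6574 to 6890 beyond 2-fold, and 313 to 417 list members (320 with all libraries). The 417 came without A35, where more odorant receptors passed the filter. Of the 117 named genes, 116 or 117 kept their call when 1 library was left out. In F14 alone 106 kept it, in F2 alone 109 and with DESeq2 112. *Dsx* lost it in F14 alone and *Sdha* under 5 alternatives, with adjusted p up to 0.339 in F2 alone. *mRpL53*, *Xrcc2*, *Lsd2* and *Or41* lost it in F2 alone, *Csnk1e*, *Hex70b*, *Wds*, *Y-x1b* and *Zasp66* in F14 alone, and *Y-x1b* also with A34 kept. The other named genes that did not keep it had no adjusted p there, among them *Lop1* with DESeq2. The median difference of all genes was 0.10 with RLE size factors, against −0.03 with TMM, and 4938 genes were then called higher and 4673 lower. With DESeq2 4957 were higher and 4738 lower. The 154 genes found by level in 1 region were 0 with A34 kept as a head (0 head and 0 abdomen genes), 312 in F2 alone (131 and 181) and 284 in F14 alone (94 and 190). They ran from 152 to 182 when 1 library was left out (50 to 70 and 101 to 114). The 1293 generation interactions became 1958 with DESeq2, 626 with A34 kept and 2587 without A35, and 837 to 2587 when 1 library was left out. The 2 ploidy interactions became 86 with DESeq2, 0 with A34 kept and 17 without A35, and 2 to 72 when 1 library was left out (72 without A55). The 9818 interactions with males ran from 9710 to 9852 when 1 library was left out. LOC100123839 and LOC100679413 lost that call without A35 (edgeR adjusted p = 1 for both). *CCE-B6* and LOC100115777 lost the generation call with A34 kept (edgeR adjusted p = 0.0543 and 0.115). The cause of these changes was not tested. No paired analysis was possible because the library codes pair no head with an abdomen. Depth limits statements on transcripts near 0, for which fitted differences are uncertain and, where a region had no count, floors are given.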
